A study of Homo sapiens with 8 samples.

Results

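The JAK kinases, STAT transcription factors and SOCS3 were followed in RNA sequencing libraries of HaCaT cells, an established human keratinocyte line entered as wild type. The members were chosen by gene name as the kinases JAK1, JAK2 and TYK2, the transcription factors STAT2, STAT3, STAT5A, STAT5B and STAT6, and the feedback inhibitor SOCS3. They were found by their Entrez gene identifiers, and all 9 were present among the 17131 genes of the table. All libraries came from cells under M5, which combines oncostatin M with IL-17A, IL-22, TNF-α and IL-1α (5 cytokines) at 10 ng/mL apiece for 24 h. The treated group also received OTS514, which blocks the kinase TOPK and was added at 10 nM, per the methods 12 h ahead of M5. M5_O5 was the title of 4 libraries and M5 that of 4 others. Title and treatment field disagree on which group was treated, because M5_O5 reads as M5 with the inhibitor while the treatment field enters the inhibitor for the M5 titles and none for the M5_O5 titles. Groups are therefore named by title, and every difference is M5_O5 minus M5. Cells without M5 were not analysed here, so the response of these genes to the cytokines themselves was not measured. HaCaT is a single line, nothing in the labels says how far the replicate cultures were kept apart, and p-values measure only the spread between these libraries.

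Receptors for cytokines such as IL-22, oncostatin M and the interferons have no kinase activity of their own and carry JAK kinases, which phosphorylate the receptor and then the STAT proteins that dock on it. Phosphorylated STATs pair, enter the nucleus and bind promoters, and STAT3 switches on SOCS3, which in turn blocks the receptor-bound JAKs. In keratinocytes, STAT3 carries the signals of IL-22 and oncostatin M, and its activation is a hallmark of psoriatic epidermis. This control acts largely on the proteins. The libraries measured RNA, and phosphorylation was not analysed here.

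Summed estimated counts lay between 16113015 and 16922693 per M5_O5 library and between 13708055 and 16847599 per M5 library, the smallest being M5 replicate 1. The biological coefficient of variation was 7.42%. PBK, which encodes TOPK, had a mean of 2.98 ± 0.56 CPM (SD, n = 4) in M5_O5 and 1.22 ± 0.95 in M5. In the edgeR test it was higher in M5_O5 (log2 fold change 1.32, adjusted p = 0.00738), as in all 16 alternatives that tested it. The groups overlapped through M5 replicate 1, with 36 reads against 9, 15 and 11 in M5 replicates 2 to 4. An inhibitor of the protein does not fix the direction of its transcript. Of 30 G2/M cell cycle genes, 29 were higher in M5_O5, where 19.5% of all genes tested were higher. The mean log2 CPM of the G2/M genes was 2.97 in M5 replicate 1, 1.83 to 1.92 in the other M5 libraries and 3.26 to 3.41 in M5_O5. Of 16 keratinocyte markers, 12 were lower in M5_O5, where 17.6% of all genes tested were lower. That share was 38.2% in the highest of 4 equal groups of genes by CPM, whose range held the markers' mean level. The median log2 fold change of the markers was -0.31, with 16 of 16 below 0. After removal of the trend on expression level it was -0.13, with 12 of 16 below 0. The markers had a summed level of 22651 to 26465 TPM in M5_O5 and 26505 to 28281 TPM in M5. Among 9 leukocyte markers PTPRC, CD4 and CD79A were at 0 in every library and CD14 was at 49.9 ± 4.49 TPM in M5_O5 and 50.6 ± 1.28 in M5 (SD, n = 4). The summed level was 45.6 to 55.0 TPM in M5_O5 and 50.2 to 53.2 in M5 for leukocyte markers, 10.7 to 11.1 and 13.3 to 15.7 for fibroblast markers, mostly COL1A1, and at most 1.0 TPM for melanocyte and endothelial markers. The part of the cell cycle and keratinocyte shifts in the results on JAKs and STATs was not tested. In a bulk sample of a single line, fewer cells in a given state and less RNA of these genes per cell cannot be told apart.

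JAK1 transcript was lower and JAK2 transcript higher in the M5_O5 libraries, and these were the 2 member genes whose difference passed the test under every alternative processing. STAT3 and SOCS3, the STAT and the inhibitor with the highest RNA levels, were lower by less, with log2 fold changes of -0.21 and -0.27. In all, 7 of the 9 genes passed edgeR's quasi-likelihood test at an adjusted p under 0.05 over the 12434 genes tested, 1 higher and 6 lower, where 37.1% of all genes passed, 19.5% higher and 17.6% lower. STAT2 and STAT6 did not pass. At a 2-fold change, which 3.20% of all genes reached with the same test, 0 of the 9 were called. The 9 log2 fold changes had a median of -0.19, against 0.01 over all genes tested. The groups did not overlap in CPM (counts relative to the TMM-scaled library total) for 4 of the 9, JAK1, STAT3, STAT5B and SOCS3, where 33.6% of all genes had this arrangement.

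**Figure D1:**
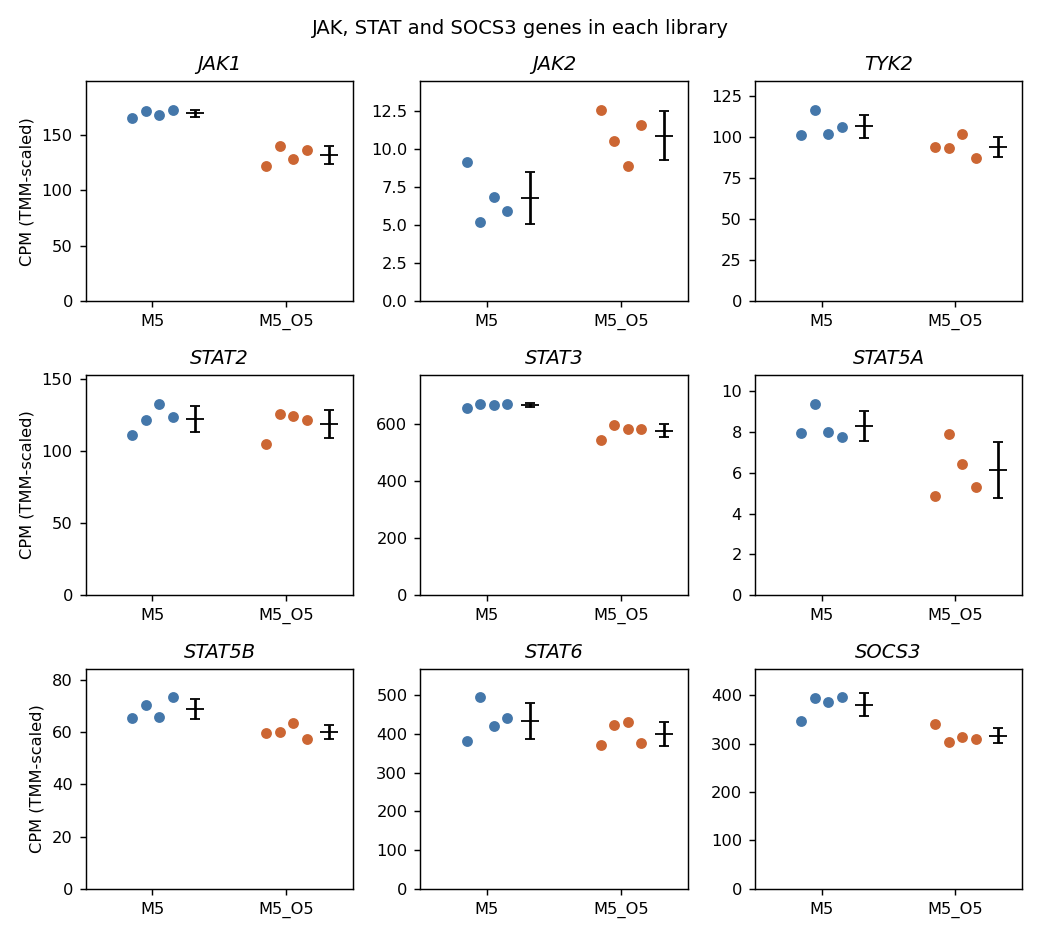
TMM-scaled CPM of the 9 genes in each library, with M5 in blue and M5_O5 in orange, 1 point a library in the order of replicates 1 to 4, and the mean with its SD beside them. The groups do not overlap for JAK1, STAT3, STAT5B and SOCS3, and M5 replicate 1 is the highest M5 library for JAK2.

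The levels of different genes can be compared only per length, in TPM. Averaged over the 8 libraries, STAT3 stood at 229 TPM, SOCS3 at 228 and STAT6 at 178. These 3 were followed at some distance by JAK1 at 49.2 TPM, STAT2 at 46.0 and TYK2 at 40.4. STAT5B had 21.5 TPM, while STAT5A had 3.07 and JAK2 had 2.11. Thus the kinases of this group differed widely in transcript level, with JAK2, the kinase of many cytokine and hormone receptors, far below JAK1, which serves receptors built on the gp130 chain, the interferon receptors and the IL-22 receptor. Neighbours in this order were not separated everywhere. STAT3 was above SOCS3 in 4 of 8 libraries, JAK1 above STAT2 in 5, STAT2 above TYK2 in 7 and STAT5A above JAK2 in 6, and the ranges of these pairs overlapped. The other neighbours kept their order in all 8 libraries. The order was the same in FPKM, which is no separate check because it keeps the ratios between genes of a library.

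JAK1 (Entrez gene 3716) had 122, 139.7, 129 and 136 CPM in M5_O5 replicates 1 to 4 and 166, 171, 168 and 173 CPM in M5 replicates 1 to 4. Every M5_O5 library was below every M5 library. The means were 132 ± 7.93 and 169 ± 3.15 CPM (SD, n = 4), a log2 fold change of -0.36 ± 0.05 (SE, 95% interval -0.48 to -0.25, adjusted p = 0.000181). The exact permutation test on CPM gave p = 0.0286, the minimum for a design of 4 and 4. The groups were also apart in deposited TPM, at 43.2 to 47.6 in M5_O5 and 50.9 to 57.1 in M5. JAK1 counts rested on 2100 to 2772 reads per library.

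JAK2 (Entrez gene 3717) had 12.6, 10.6, 8.89 and 11.6 CPM in M5_O5 replicates 1 to 4, against 9.20, 5.22, 6.84 and 5.92 CPM in M5 replicates 1 to 4. The groups overlapped by 1 library, since M5 replicate 1 lay above M5_O5 replicate 3. The means were 10.9 ± 1.59 and 6.80 ± 1.73 CPM (SD, n = 4), a log2 fold change of 0.69 ± 0.16 (SE, 95% interval 0.35 to 1.03, adjusted p = 0.00368), and the exact permutation test on CPM gave p = 0.0571. JAK2 had the largest difference of the 9 genes under all alternatives except removal of the trend on expression level, where STAT5A reached -0.61 and JAK2 0.54. It also had few reads, from 80 to 217 per library. M5 replicate 1, the highest M5 library for JAK2, was also the M5 library with the highest G2/M genes. Without it the JAK2 log2 fold change was 0.86.

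TYK2 (Entrez gene 7297), the kinase partner of JAK1 at type I interferon and IL-22 receptors, had 93.8, 93.1, 102 and 87.2 CPM in M5_O5 replicates 1 to 4 and 101, 117, 102 and 106 CPM in M5 replicates 1 to 4. The groups overlapped. The means were 94.0 ± 6.01 and 106 ± 7.07 CPM (SD, n = 4), a log2 fold change of -0.18 ± 0.06 (SE, adjusted p = 0.039). This call was kept in 7 of 17 alternatives and in 2 of the 8 that left out a library.

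Because JAK1 and JAK2 differed in opposite directions, their ratio within a library moved more than either gene. In TPM, JAK2 stood at 7.53%, 5.34%, 4.88% and 6.03% of JAK1 in M5_O5 replicates 1 to 4, and at 3.96%, 2.14%, 2.88% and 2.45% in M5 replicates 1 to 4. The groups did not overlap. The mean log2 ratio was -4.09 ± 0.27 in M5_O5 and -5.17 ± 0.38 in M5 (SD, n = 4), and JAK1 remained the far more abundant transcript everywhere. A ratio shows unequal change of the genes and not which of them changed.

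**Figure D2:**
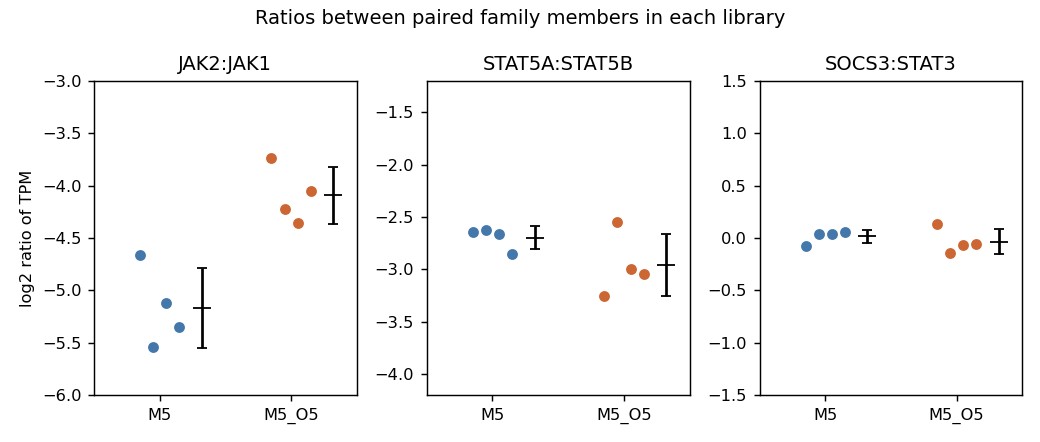
Log2 ratio of TPM between JAK2 and JAK1, STAT5A and STAT5B, and SOCS3 and STAT3 in each library, 1 point a library, with the mean and its SD beside each group and the same axis span in every panel. JAK2 to JAK1 lies between -4.36 and -3.73 in M5_O5 and between -5.54 and -4.66 in M5, while the other ratios overlap between groups.

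STAT3 (Entrez gene 6774), the main STAT downstream of IL-22 and oncostatin M, had 547, 599.6, 583.5 and 583.8 CPM in M5_O5 replicates 1 to 4 and 657, 673, 667 and 670.5 CPM in M5 replicates 1 to 4. The groups did not overlap, and the M5 libraries lay close together. The means were 578 ± 22.4 and 667 ± 7.12 CPM (SD, n = 4), a log2 fold change of -0.21 ± 0.05 (SE, 95% interval -0.32 to -0.10, adjusted p = 0.00646). In deposited TPM the ranges overlapped, at 220.03 to 228.64 in M5_O5 and 224.46 to 252.06 in M5. The call held without each library in turn but was lost when only library size was scaled for (-0.09, adjusted p = 0.134). It was also lost after removal of the expression level trend (-0.04, adjusted p = 0.501). With limma on log2(TPM + 1) and log2(TPM + 0.1) the log2 difference was -0.08 on both scales and did not pass (adjusted p = 0.237 and 0.242).

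SOCS3 (Entrez gene 9021) had 340.5, 303, 314 and 310.0 CPM in M5_O5 replicates 1 to 4 and 347, 394, 387 and 396 CPM in M5 replicates 1 to 4. All M5_O5 libraries lay below all M5 libraries, with M5_O5 replicate 1 and M5 replicate 1 close to each other. The means were 317 ± 16.4 and 381 ± 23.1 CPM (SD, n = 4), a log2 fold change of -0.27 ± 0.06 (SE, 95% interval -0.39 to -0.14, adjusted p = 0.00334). In TPM the groups overlapped, at 199.95 to 244.02 in M5_O5 and 231 to 243.91 in M5. SOCS3 passed without each library in turn and with library size only (-0.15, adjusted p = 0.0457). It did not pass with limma on log2(TPM + 1) or log2(TPM + 0.1), where its log2 difference was -0.13 on both scales (adjusted p = 0.13 and 0.132). Nor did it pass after removal of the expression level trend (-0.12, adjusted p = 0.105). The log2 ratio of SOCS3 to STAT3 in TPM was -0.04 ± 0.12 in M5_O5 and 0.02 ± 0.06 in M5 (SD, n = 4). Thus both transcripts stood at nearly equal levels in every library, with SOCS3 between 90.5% and 109.7% of STAT3.

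STAT5A and STAT5B are close paralogs that lie side by side in the genome, and reads may have been divided between them in counting. STAT5A (Entrez gene 6776) had 4.88, 7.93, 6.46 and 5.29 CPM in M5_O5 replicates 1 to 4 and 7.96, 9.40, 8.03 and 7.79 CPM in M5 replicates 1 to 4. M5_O5 replicate 2 reached into the M5 range. The log2 fold change was -0.43 ± 0.15 (SE, 95% interval -0.74 to -0.12, adjusted p = 0.0305), on 83.8 to 144 reads per library, and the exact permutation test on CPM gave p = 0.0571. It passed in 10 of 17 alternatives, among them 4 of the 8 that left out a library. STAT5B (Entrez gene 6777) had 59.5, 60.0, 63.5 and 57.1 CPM in M5_O5 replicates 1 to 4 and 65.5, 70.3, 65.5 and 73.2 CPM in M5 replicates 1 to 4. Its groups did not overlap in CPM, with a log2 fold change of -0.19 ± 0.06 (SE, adjusted p = 0.0197). In deposited TPM they overlapped, at 20.44 to 21.69 in M5_O5 and 20.42 to 23.19 in M5. STAT5B passed in 11 of 17 alternatives. The call was lost with library size only (-0.08, adjusted p = 0.306) and with limma on both TPM scales. It was also lost after removal of the expression level trend (-0.13, adjusted p = 0.101). STAT5A and STAT5B were both lower in M5_O5. STAT5A stood at 10.5% to 17.1% of STAT5B in M5_O5 and at 13.8% to 16.2% in M5, ranges that overlapped.

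STAT2 and STAT6 did not pass. STAT2 (Entrez gene 6773), which acts with the DNA-binding protein IRF9 in the response to type I interferon, had 105 to 126 CPM in M5_O5 and 111 to 133 CPM in M5. Its log2 fold change was -0.04, with a 95% interval of -0.19 to 0.11 (adjusted p = 0.683). STAT6 (Entrez gene 6778), the STAT of IL-4 and IL-13, had 371 to 432 CPM in M5_O5 and 382 to 495 CPM in M5. Its log2 fold change was -0.12, with a 95% interval of -0.28 to 0.05 (adjusted p = 0.26). Both changed sign when only library size was scaled for, on the TPM scales and after removal of the expression level trend, without passing in any of 17 alternatives.

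**Figure D3:**
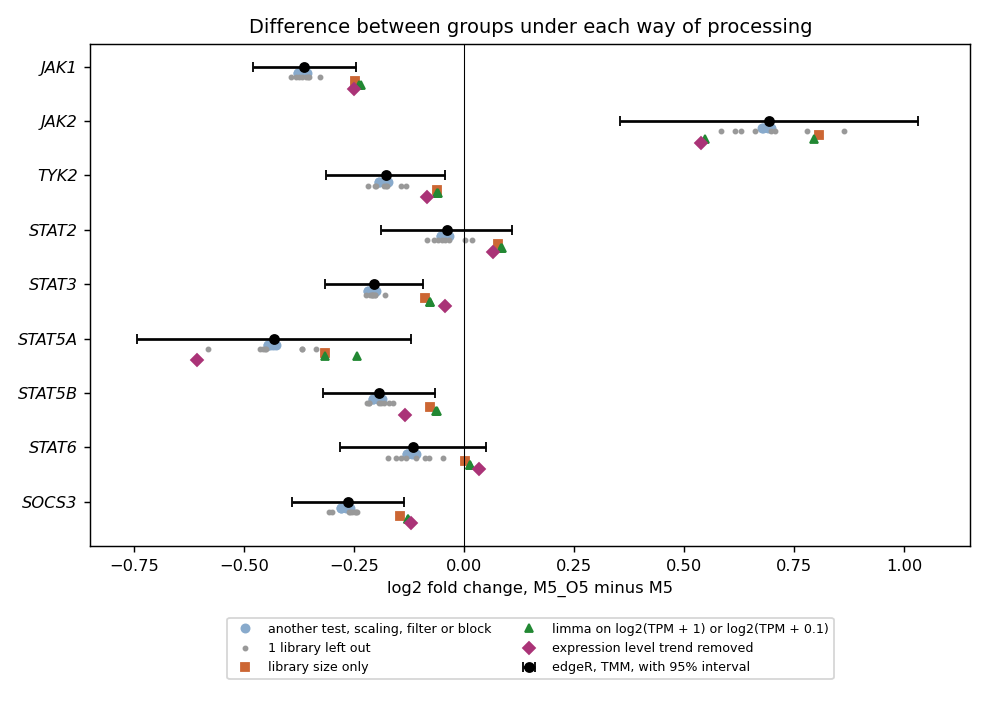
Log2 fold change of each gene, M5_O5 minus M5, with the edgeR value and its 95% interval in black and the values under the other ways of processing below it. JAK2 stays above 0 throughout, and JAK1, TYK2, STAT3, STAT5A, STAT5B and SOCS3 stay below 0. Library size scaling, TPM and trend removal move JAK1, TYK2, STAT3, STAT5B and SOCS3 toward 0 and place STAT2 and STAT6 above it.

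The sizes of the falls have to be read beside how all genes moved with their level. Tested genes were cut by CPM into 4 groups of equal size. In the group with the highest CPM the median log2 fold change was -0.11 and 38.2% were called lower, whereas in the lowest group the median was 0.23 and 4.02% were called lower. JAK1, TYK2, STAT2, STAT3, STAT6 and SOCS3 were in the highest group, STAT5B in the next, JAK2 in the one below and STAT5A in the lowest. STAT5A thus went against the genes of its level, with a log2 fold change of -0.61 (adjusted p = 0.00689) once the trend on expression level was removed. JAK1 and JAK2 also passed then, with log2 fold changes of -0.25 (adjusted p = 0.00228) and 0.54 (adjusted p = 0.0133). When only library size was scaled for, all genes had a median of 0.13 and the 9 genes one of -0.08. The 9 genes' median relative to all genes was then -0.21, as in the TMM fit. This sameness is no check, because the change of scaling moves all genes by nearly the same amount. With the trend removed, the 9 genes' median relative to all genes was -0.08.

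STAT3 is made in an alpha form and a shorter beta form that lacks the C-terminal transactivation domain, and the files list its RefSeq transcripts separately. In the GENCODE annotation of GRCh38 the alternative acceptor lies in exon 23 of the 24 exons of the alpha transcript ENST00000264657.9, on the minus strand at chr17:42316852-42316901, in coding sequence. The transcript ENST00000585517.5 lacks 50 bases there. The stretches are shown because they are what a read must cross to tell the forms apart, with the bases that the shorter form lacks in capitals.
ENST00000264657.9: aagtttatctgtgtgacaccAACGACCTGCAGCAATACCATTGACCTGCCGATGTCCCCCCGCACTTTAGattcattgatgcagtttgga
ENST00000585517.5: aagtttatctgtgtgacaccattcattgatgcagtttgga

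Of 20 STAT3 transcripts listed, 19 had counts and 18 had enough to compare as shares of the STAT3 estimated count. No single transcript dominated. XM_024450896 held 18.5% ± 1.06 in M5_O5 and 18.1% ± 1.72 in M5 (SD, n = 4), and the 5 most abundant together held 71.2% to 77.7%. NM_139276, the RefSeq match of the alpha transcript above, held 14.1% to 16.95% in M5_O5 and 8.88% to 13.1% in M5, so its groups did not overlap. Its exact permutation p was 0.0286, and 0.514 after adjustment over the 18 transcripts. The adjusted value was the lowest of all, so 0 of 18 passed, and since 0.0286 is the smallest p possible here, a lone transcript could not have passed. NM_213662, which is the RefSeq record of a beta form, held 0.00255% to 4.21% in M5_O5 and 1.08% to 3.21% in M5. Its libraries differed from each other more than the groups did. Estimated counts divide reads among transcripts that share nearly all of their sequence, other records may carry the beta end as well, and these shares are therefore uncertain.

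**Figure D4:**
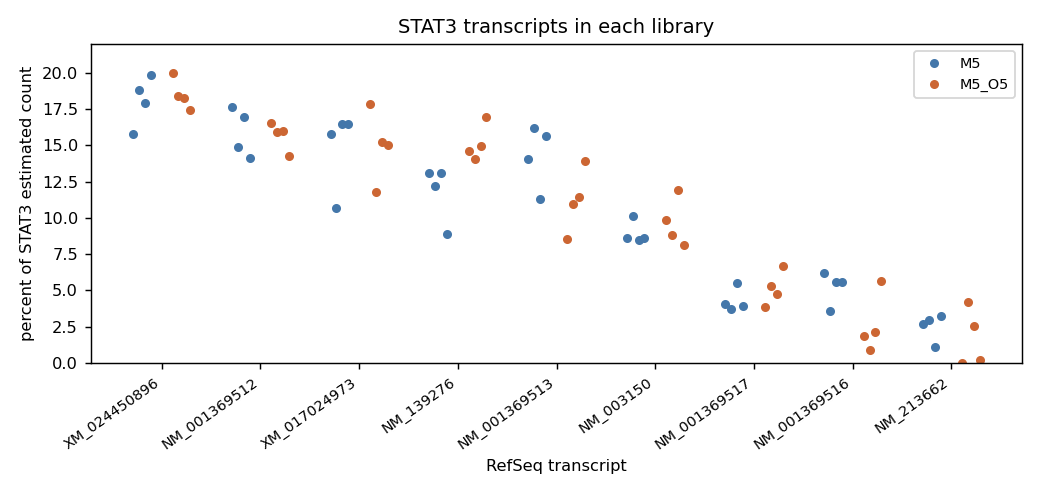
Share of the STAT3 estimated count held by the 9 most abundant RefSeq transcripts, in percent, 1 point a library, with M5 in blue and M5_O5 in orange. NM_139276 is the transcript whose groups do not overlap (8.88% to 13.1% in M5, 14.1% to 16.95% in M5_O5), and all shares lie below 20%.

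For the other genes a single transcript mostly led. Its mean share of the estimated count was 92.4% for STAT5B, 90.7% for SOCS3, 85.4% for JAK1, 84.3% for TYK2 and 78.0% for STAT6. It was 54.7% for STAT2, 43.8% for STAT5A and 39.7% for JAK2. In the 2 genes with fewest reads the leading share varied most between libraries, from 22.1% to 58.9% for JAK2 and from 21.7% to 77.4% for STAT5A.

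The genes whose profile across the 8 libraries was nearest to that of STAT3, by root mean square difference of centred log2 CPM over 11952 genes, were KDM2A (0.0185), MAST4 (0.0188) and PDPK1 (0.0199). Those nearest to SOCS3 were VASP (0.0294), FAM83H (0.0298) and NOP53 (0.031). Their log2 fold changes ran from -0.28 for NOP53 to -0.19 for KDM2A, and the likeness to STAT3 and SOCS3 by which they were chosen fixed this direction. The STAT binding motif TTCNNNGAA, searched on both strands, was present in 7.67% of 34796 RefSeq promoter windows (GRCh38.p14) that run from 250 bases before to 50 after a transcript start. It was in 0 of the 17 windows of the 9 genes, which says only that these letters are not within that distance. The same motif with 4 in place of 3 bases of any kind between TTC and GAA, a spacing known for STAT6, was searched in the same way and was present in 6.43% of all windows. It was in 1 of the 17 windows of the 9 genes, that of a STAT5A transcript, as TTCCTCTGAA from position -229 relative to the start.

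Outside the 9 genes, the genes of the family described here gave 1 call in each direction. IRF9, the DNA-binding partner of STAT2, was lower in M5_O5 at 58.9 ± 4.30 against 69.3 ± 5.08 CPM (SD, n = 4, log2 fold change -0.24, adjusted p = 0.0157), a call kept in 12 of 17 alternatives and lost with library size only, on both TPM scales, after removal of the expression level trend and without M5 replicate 2. STAT4, a STAT known from lymphocytes, had 26 to 53 reads per library and was called higher (0.47, adjusted p = 0.0407), a call kept in 6 of 17 alternatives. JAK3, the kinase of lymphocyte cytokine receptors, had 2 to 9 reads and was not tested.

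Among 18 other brakes of the pathway (SOCS and PIAS proteins, CISH, phosphatases and adaptors), 3 were higher, 3 lower and 12 did not pass. The median log2 fold change was -0.02, and 33.3% were called, near the 37.1% of all genes. USP18, which holds back type I interferon signalling, rose most, from 2.75 ± 0.36 to 4.28 ± 0.74 CPM (SD, n = 4, log2 fold change 0.64, adjusted p = 0.00826), and was called in 16 of 17 alternatives, the exception being removal of the expression level trend. SH2B3, an adaptor that restrains JAK2, was also higher (0.60, adjusted p = 0.00301), as was the phosphatase gene PTPN1 (0.15, adjusted p = 0.0455). SOCS6 fell most (-0.34, adjusted p = 0.0014), followed by SOCS2 at 58.3 ± 1.75 against 70.1 ± 0.99 CPM (-0.27, adjusted p = 0.00129) and the ubiquitin ligase gene CBL (-0.19, adjusted p = 0.00779). The calls of SOCS6 and SOCS2 were lost on both TPM scales. SOCS1 had 14.5 ± 0.85 CPM in M5_O5 and 16.1 ± 2.2 in M5 (-0.16, adjusted p = 0.229), and CISH had 2.94 ± 0.37 and 2.57 ± 0.06 (0.19, adjusted p = 0.338). PTPN11, the brake gene with the highest TPM, did not pass (0.07, adjusted p = 0.359).

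Of 30 receptor chains that use JAKs, 20 were tested, of which 4 were higher, 5 lower and 11 did not pass. That is 45.0% called, against 37.1% of all genes. The 4 chains followed for cytokines of the M5 mixture did not pass. OSMR, the oncostatin M receptor chain, had 587 ± 26.5 CPM in M5_O5 and 629 ± 17.2 in M5 (SD, n = 4, -0.10, adjusted p = 0.161), and its partner IL6ST, which encodes gp130, had 254 ± 17.3 and 248 ± 24.7 (0.03, adjusted p = 0.769). For the IL-22 receptor, IL22RA1 had 19 to 41 reads per library (-0.30, adjusted p = 0.33) and IL10RB had 22.3 ± 2.62 and 25.4 ± 0.66 CPM (-0.19, adjusted p = 0.0996). The chains of the interferon gamma receptor passed in opposite directions. IFNGR2 was lower in M5_O5, at 56.6 ± 2.70 against 84.4 ± 10.6 CPM (-0.58, adjusted p = 0.00011), while IFNGR1, the chain with the highest TPM, was higher, at 466 ± 24.5 against 407 ± 27.0 CPM (0.20, adjusted p = 0.0217). The latter call was kept in 12 of 17 alternatives and the former in all 17. IL27RA rose most (0.84, adjusted p = 0.0153), on 9 to 28 reads, and did not pass after removal of the expression level trend or without M5 replicate 2.

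Of 30 ligands of such receptors, 15 were tested, of which 5 were higher, 4 lower and 6 did not pass. That is 60.0% called, against 37.1% of all genes. IL6 and LIF, cytokines that signal through gp130 to STAT3, were higher in M5_O5. IL6 had 24.6 ± 2.55 against 8.03 ± 1.81 CPM (SD, n = 4, log2 fold change 1.62, adjusted p = 9.76e-07), and LIF had 22.6 ± 1.68 against 7.75 ± 0.44 TPM (1.41). In contrast, IFNK, the interferon of keratinocytes, was lower, at 2.01 ± 0.29 against 4.10 ± 0.41 CPM (-1.03, adjusted p = 0.000203). IL24, the ligand with the highest TPM, was at 367 ± 26.0 against 424 ± 43.7 CPM (-0.21, adjusted p = 0.0427), with overlapping groups and a call kept in 6 of 17 alternatives. OSM, the gene of oncostatin M, had at most 2 reads in a library.

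Of 39 tested genes known as STAT3 targets, 7 were higher, 11 lower and 21 did not pass, where 19.5% of all genes were higher and 17.6% lower. The median log2 fold change of these targets was -0.12, against 0.01 over all genes, and it was 0.01 after removal of the expression level trend. The genes that rose most were BIRC5 (1.53, adjusted p = 0.000288), NNMT (1.52) and LBP (1.45). BIRC5, which encodes survivin, is also one of the 30 G2/M genes. PIM1, a kinase gene that STATs induce, fell most, from 51.1 ± 8.23 to 31.8 ± 2.98 CPM (SD, n = 4, -0.69, adjusted p = 0.000203). S100A8, an alarmin and the target with the highest TPM, was lower, at 45589 ± 2275 against 53855 ± 1852 TPM (-0.39, adjusted p = 0.00122), but this call was lost after removal of the expression level trend (-0.18, adjusted p = 0.0708). The list holds genes that other pathways also control.

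Of 40 tested interferon-induced genes, many of them targets of STAT2, 12 were higher, 8 lower and 20 did not pass, with a median of 0.11. Of all genes, 19.5% were higher and 17.6% lower, so calls in both directions are not particular to this list. IFIT2 was the gene that rose most, from 64.7 ± 7.82 to 195 ± 17.9 CPM (SD, n = 4, 1.60, adjusted p = 4.51e-08), and its neighbour in the family IFIT3 was also higher (1.03), as was GBP1 (1.07). In contrast, IFI6 fell most, from 24.9 ± 1.44 to 15.8 ± 1.06 CPM (-0.65, adjusted p = 2.83e-05), and IFI27, XAF1 and OAS1 were lower as well (-0.59, -0.47 and -0.38). LGALS3BP, the gene of this list with the highest TPM, did not pass (0.15, adjusted p = 0.136).

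Of 11 tested STAT5 targets, 3 were higher, 4 lower and 4 did not pass. That is 63.6% called, against 37.1% of all genes. CCND2, which encodes cyclin D2, rose most, from 45.5 ± 1.11 to 70.9 ± 2.19 CPM (SD, n = 4, 0.64, adjusted p = 2.13e-06), PIM1 fell most, and ID1, the most abundant in TPM, did not pass (-0.17, adjusted p = 0.166). Of 9 tested STAT6 targets, 0 were higher, 5 lower and 4 did not pass, where 19.5% of all genes were higher and 17.6% lower. The median of the STAT6 targets was -0.19, and it was -0.05 after removal of the expression level trend. TGM2, which encodes a transglutaminase, fell most, from 398 ± 69.0 to 205 ± 15.7 CPM (-0.96, adjusted p = 1.44e-05). SERPINB4, the STAT6 target with the highest TPM, was lower in groups that did not overlap in CPM (-0.19, adjusted p = 0.0392). In TPM its groups overlapped, at 8133 to 8935 in M5_O5 and 8521 to 9251 in M5. The SERPINB4 call was kept in 6 of 17 alternatives, and its log2 fold change was 0.05 after removal of the expression level trend.

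Scaling for library size only, which puts the median of all genes at 0.13, gave a median of 0.00018 for the STAT3 targets, 0.01 for the receptors and 0.02 for the ligands, so the sign of these medians depends on the scaling. Relative to the median of all genes they were -0.13 for the STAT3 targets, -0.12 for the receptors and -0.11 for the ligands under both scalings. This sameness is no check of the values, because the change of scaling moves all genes by nearly the same amount.

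**Figure D5:**
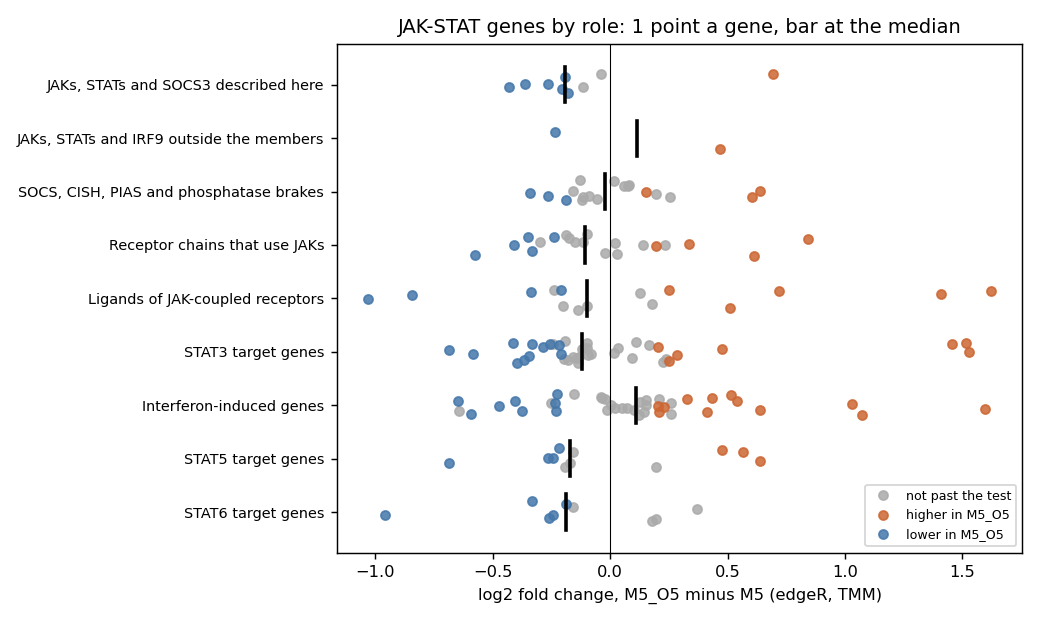
Log2 fold change of JAK-STAT genes by role, M5_O5 minus M5, 1 point for each gene tested, with genes past the test higher in orange, lower in blue, the others in grey, and a bar at the median of each list. The lists of STAT3 targets, STAT5 targets and interferon-induced genes hold called genes on both sides of 0. The 9 genes described here lie between the called extremes of the lists of ligands, STAT3 targets and interferon-induced genes. JAK2 (0.69) lies above CCND2 (0.64), the largest called rise among the STAT5 targets.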

How the data were processed

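Total RNA of 8 HaCaT libraries was sequenced. The authors filtered reads, mapped them with HISAT2 2.1.0 and counted them, by StringTie according to the paper's methods, while the submitters' processing notes name Bowtie2 2.2.5 and RSEM 1.2.8. The notes also name the mouse build mm10 although the identifiers are human RefSeq, so the files gave no gene positions. The deposited table holds an estimated count, TPM and FPKM for each of 86639 transcripts per library, made by the authors. The deposited estimated count is not normalized, the deposited TPM is scaled to a fixed sum per library, and the deposited FPKM is scaled by length and library size. Columns with the authors' group means were not used, and no column of other samples was present.

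Counts were summed per Entrez gene, rounded, filtered with filterByExpr and scaled by TMM. All libraries entered 1 fit of edgeR 4.0.16 (R 4.3.3), with its quasi-likelihood test and adjustment by Benjamini-Hochberg over all genes, and adjusted p under 0.05 was a call. TPM and FPKM were summed per gene. STAT3 transcript shares and single genes were compared with two-sided exact permutation tests. Symbols of RefSeq genes on GRCh38.p14 matched 17072 genes. Scripts were tested on simulated data with known changes. Replicates of a group differed by more than counting noise, and all were used. The chi-square per gene between 2 M5 libraries was 10.2 to 16.2 for pairs with replicate 1 and 2.01 to 4.01 for the others. Between M5_O5 libraries it was 3.02 to 11.2. Intervals cover the spread between libraries.

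The alternatives were DESeq2 1.42.0, its size factors in edgeR, library size only, other filters, limma 3.58.1 on log2(TPM + 1) and log2(TPM + 0.1), removal of the trend on expression level, a block for the replicate number, and leaving out each library. A log2(TPM + 1) scale understates differences of low genes. The members and gene lists were chosen with earlier results of these data known. Named were the members, JAK3, STAT4, IRF9, SOCS1, SOCS2, CISH, OSMR, IL6ST, IL22RA1, IL10RB and PBK, and from each list the called gene with the largest change in each direction and the gene with the highest TPM, with the 3 genes most like STAT3 and SOCS3. SH2B3, PTPN1, CBL, LIF, OSM, NNMT, LBP, IFIT3, GBP1, IFI27, XAF1 and OAS1 were named after their values were seen. Of the genes listed with the pathway, 1 is not reported here.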

Additional observations from a re-analysis of the deposited data

Results flagged for a closer look

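In 88 groups of 4 libraries, the highest and lowest library were compared with the rest, and 6 stood apart, while chance alone would flag 4.4. For 1 member gene, STAT5A in M5 replicate 2 was at 9.40 CPM and the remaining M5 libraries at 7.79 to 8.03. Among the pathway genes, SOCS6 in M5_O5 replicate 4 was at 38.3 CPM against 32.96 to 33.6. M5 replicate 1 stood out for IL6, with 10.7 CPM against 6.79 to 7.38, and for IL24, with 359 CPM against 440.2 to 450.2. PIM1 in M5_O5 replicate 1 was at 27.4 CPM against 32.8 to 33.8, and IFI6 in M5 replicate 2 was at 22.7 CPM against 25.3 to 25.8. The sources of these values were not tested.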

How the results depend on the processing

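JAK1 and JAK2 passed the test in all 17 alternatives and SOCS3 in 14, STAT3 in 13, STAT5B in 11, STAT5A in 10 and TYK2 in 7. The number of the 9 genes called was 7, of which 6 were lower. It was 3 (2 lower) with library size only and after removal of the expression level trend, 2 (1 lower) with limma on log2(TPM + 1) and on log2(TPM + 0.1), and 4 to 7 (3 to 6 lower) with each library left out, the lowest without M5_O5 replicate 4, where JAK1, JAK2, STAT3 and SOCS3 passed. It stayed at 7 with DESeq2, its size factors, no filter, at least 10 counts in every library, and without M5 replicate 1. The scaling itself shifts the median of all genes, to 0.13 with library size only and 0.12 and 0.13 on the TPM scales. The log2 fold change of STAT2 turned to 0.0764 with library size only, to 0.0834 and 0.085 on the log2(TPM + 1) and log2(TPM + 0.1) scales and to 0.0646 with the trend removed, and ranged from -0.084 to 0.0167 with each library left out, above 0 without M5_O5 replicate 1 and, at 0.0008, without M5 replicate 3. That of STAT6 turned to 0.0015 with library size only, to 0.012 on both TPM scales and to 0.0331 with the trend removed. No member was called at 2-fold, no STAT3 transcript passed and the order of levels was the same under each alternative run for them. A lone transcript could not have passed, and FPKM keeps the order that TPM gives within a library, so the checks of transcripts and order could show little. The causes of these shifts were not tested.

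The replicate numbers were not shown to pair the libraries. Deviations of same-numbered libraries correlated at 0.21, 0.10, -0.0036 and 0.01, and M5_O5 replicate 3 correlated best with M5 replicate 2. With the replicate number as a block, 7 of the 9 genes passed, as without the block, and over all genes 2703 were higher and 2552 lower in place of 2420 and 2192.

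JAK2, STAT5A, STAT4 and IL22RA1 are limited by depth, with at most 217 reads in a library, and the smallest p that the exact permutation test allows for 4 libraries against 4, 0.0286, limits the tests of STAT3 transcript shares.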
